A study of Caenorhabditis elegans with 3 samples.

Results

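The genes of the proteasome, the protease complex that degrades ubiquitin-tagged proteins, were followed in gonads dissected from young adult Caenorhabditis elegans hermaphrodites. Members were all genes whose WormBase symbol is rpt, rpn, pas or pbs followed by a number. The rule found 33 genes among the 45836 gene entries of the deposited table, 14 of the core particle and 19 of the regulatory particle. All 33 passed the filter on low values.

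All animals were of the wild-type strain N2. RNAi by feeding began in the first larval stage at 24 °C, and gonads of the young adult F1 progeny were cut at their bend. The empty vector group received HT115 bacteria with the L4440 plasmid, the csr-1 RNAi group a clone of the Ahringer library against csr-1, and the P granule RNAi group a combined RNAi known to target the helicase genes glh-1 and glh-4 together with pgl-1 and pgl-3. csr-1 encodes a germline Argonaute; P granules, bodies of RNA and protein, sit on germ cell nuclei. Each group had 4 libraries of poly(A) RNA, named orig, 1, 2 and 3, each from 400 to 500 pooled germlines, which the series calls biological replicates. In bulk samples of this kind, fewer cells of a type and less RNA per cell cannot be told apart.

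The proteasome is built from 2 assemblies. The core particle is a barrel of stacked rings: alpha subunits, encoded by pas genes, gate the entrance, and beta subunits, encoded by pbs genes, form the chamber in which peptide bonds are cut. The regulatory particle caps the barrel. Its base holds a ring of ATPases, encoded by rpt genes, that unfold substrates and thread them inwards, together with scaffolds and ubiquitin receptors among the rpn genes. Its lid, made of further rpn subunits, removes the ubiquitin chain. In the worm germline, regulated proteolysis is known for its part in the sperm to oocyte switch, in meiosis and in the clearing of maternal proteins after fertilisation.

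Each library held between 18.4 and 31.9 M (megareads) in genes. csr-1 had 21838 to 25470 normalised reads in the control libraries and 2445 to 6025 under csr-1 RNAi, and pgl-1 had 16123 to 24248 in the controls and 1495 to 2746 in the P granule libraries. glh-1, another target, had 18080 to 29600 reads in the controls and 16164 to 18726 in the P granule libraries, which overlapped, and csr-1 itself had 14389 to 16887 there. None of the 10 germline and 10 oocyte markers was at 0 in any group, and markers of sheath, muscle, intestine, cuticle and neurons were also read in every group. The 3 libraries named orig stood apart: the summed reads of 7 sheath and spermatheca markers were 740 to 869 in them and 1459 to 2939 in the other 9. The csr-1 libraries also differed in their summed reads of 14 sperm markers, which were 1130, 1623, 4634 and 9149 in orig, 1, 2 and 3, against 561 to 1642 in the controls; P granule libraries had 1263 to 5465.

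The proteasome genes were highly expressed in the control gonad, at similar levels within each ring. Levels between genes are given as normalised reads per kb of coding sequence. The core genes lay between 7862 and 13251 per kb, with a median of 10084, and the regulatory genes other than rpn-6.2 between 4847 and 10656, with a median of 7677. The median over 10619 tested genes with a coding length was 281 per kb. All members but rpn-6.2 lay above the level of 93.2% of those genes. Together the 33 genes took 1.19% ± 0.0244 of the reads in genes in the control libraries (SD, n = 4).

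The highest gene per kb was pas-3, an alpha subunit, with 13251 ± 1993 per kb (SD, n = 4). It was followed by pas-5 (13114 ± 218) and pas-2 (12558 ± 520), and these neighbours did not differ beyond their spread. Among the beta subunits, pbs-7 was highest (11096 ± 1097 per kb) and pbs-2, which carries the trypsin-like activity in yeast and human, lowest (7862 ± 1204 per kb). The other catalytic beta subunits were in between, with 9784 ± 982 for pbs-1, the caspase-like one, and 9002 ± 1292 for pbs-5, the chymotrypsin-like one. Among the ATPase genes, rpt-1 was highest (8864 ± 869 per kb) and rpt-6 lowest (4847 ± 766 per kb). Among the non-ATPase genes, the lid genes rpn-7 (10656 ± 573) and rpn-3 (10032 ± 510) were highest per kb. Per kb of exon, rpn-7 stood at 6902, below rpn-3 (8173), rpn-8 (7664) and rpn-9 (7143), and pas-5 (11412) stood above pas-3 (11129). The ubiquitin receptor genes rpn-10 and rpn-13 stood low, at 5196 ± 823 and 5526 ± 458 per kb. RPN-10 is known in C. elegans for controlling the germline sex decision.

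rpn-6.1 and rpn-6.2 both encode forms of a lid subunit that is known for bracing the contact between the core and the regulatory particle. rpn-6.1 had 5156 ± 531 normalised reads per kb in the control and rpn-6.2 had 657 ± 62.2 (SD, n = 4), the lowest member. The ratio of normalised reads of rpn-6.1 to rpn-6.2 was 6.66, 8.39, 9.16 and 9.08 in the control libraries orig, 1, 2 and 3. In the P granule libraries it was 6.88, 9.21, 7.71 and 7.87 and in the csr-1 libraries 7.61, 11.2, 8.48 and 6.68, so that the groups overlapped. Neither gene passed the test in any comparison, with adjusted p between 0.124 and 0.48 for rpn-6.1 and between 0.454 and 0.782 for rpn-6.2 (limma). With median-centred libraries rpn-6.1 was higher under csr-1 RNAi than under P granule RNAi (log2 fold change 0.41, adjusted p = 0.0392).

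**Figure D1:**
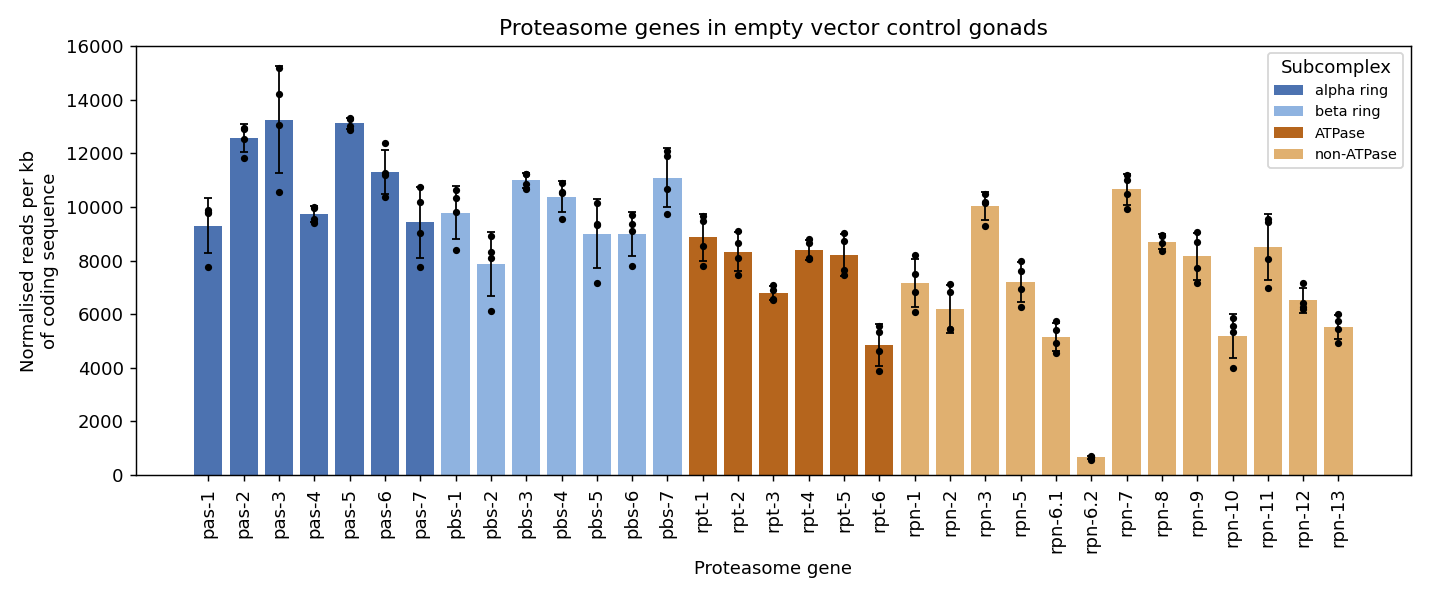
Normalised reads per kb of coding sequence of the 33 proteasome genes in the empty vector libraries (bars, mean of 4 libraries; lines, SD; points, libraries), coloured by subcomplex. pas-3 was highest with 13251 and rpn-6.2 lowest with 657.

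No proteasome gene lies on the X chromosome, which is largely silent in germ cells. The members were spread over the autosomes, 10 on chromosome I, 7 on II, 8 on III, 3 on IV and 5 on V. In the WBcel235 annotation 10 of the 33 had exons that overlap those of another protein-coding gene. The library kit does not mark strand, so reads in these stretches could not be told apart. The overlapping genes had 10.5 to 1684 normalised reads in the control, the highest being rpoa-49, whose exons overlap those of rpt-4.

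RNAi against the Argonaute gene was examined first, against the empty vector libraries, which also serve as controls for P granule RNAi. Under csr-1 RNAi 3 lid genes rose, rpn-9, rpn-11 and rpn-12, and no core gene passed the test. The 3 of 33 members that rose are 9.09% of the list, where 6.98% of all 11345 tested genes rose, and no member fell, where 7.8% of all genes fell; 14.8% of all genes passed in either direction. With median-centred libraries 8.51% of all genes rose and 5.52% fell. The share of members that rose is thus close to that of all genes.

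rpn-9 encodes a structural subunit of the lid. It had 8955, 10073, 10524 and 8304 normalised reads in the control libraries orig, 1, 2 and 3, and 13497, 15359, 14369 and 17371 in the csr-1 RNAi libraries. All 4 csr-1 libraries lay above all 4 controls. The log2 fold change was 0.68 (SE 0.16, limma adjusted p = 0.0131), a fold of 1.60. It passed without any single library, at adjusted p between 0.00409 and 0.0402, but not without csr-1 libraries 2 and 3 together (0.0736). Under P granule RNAi rpn-9 had 8423, 13874, 10784 and 9333 reads, a range that overlapped both other groups.

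rpn-11 encodes the metalloprotease that in yeast and human cuts the ubiquitin chain from the substrate at the mouth of the proteasome. Its normalised reads were 7535, 8949, 8829 and 6533 in the controls and 11037, 12991, 12045 and 14509 under csr-1 RNAi, again with no overlap. The log2 fold change was 0.67 (SE 0.18, limma adjusted p = 0.026). The call was lost without control library orig or 3 or csr-1 library 1, 2 or 3, at adjusted p between 0.0509 and 0.0692, and without csr-1 libraries 2 and 3 (0.121). rpn-8, whose product pairs with RPN-11 and lacks the catalytic site in yeast and human, did not follow: its csr-1 libraries had 7496, 8643, 8879 and 7527 reads and its controls 9062, 9379, 9723 and 9663. Those ranges did not overlap, with the csr-1 libraries lower, but the log2 fold change of −0.22 (SE 0.12) did not pass the test (adjusted p = 0.238).

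rpn-12 encodes the last lid subunit to join during assembly in yeast. It had 4813, 4636, 4702 and 5375 normalised reads in the controls and 5706, 6799, 7092 and 9400 under csr-1 RNAi, with all csr-1 libraries above the controls. The log2 fold change was 0.55 (SE 0.15, limma adjusted p = 0.0279). The call was lost without control library orig, 1 or 2 or csr-1 library 1 or 2, at adjusted p between 0.0573 and 0.0779, and without csr-1 libraries 2 and 3 (0.35, adjusted p = 0.173). All 3 genes that rose lie on chromosome II, which holds 7 members. The other 4 members on that chromosome had log2 fold changes of −0.17 for rpn-5, 0.06 for pbs-3, 0.21 for rpt-4 and 0.22 for pas-7, none past the test.

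The other lid genes rpn-3 (−0.15), rpn-5 (−0.17), rpn-6.1 (0.14) and rpn-7 (−0.06) had log2 fold changes that did not pass. The scaffolds of the base, rpn-1 and rpn-2, the largest subunits of the particle, stood higher without passing the test. rpn-1 had 20093, 22075, 24146 and 17916 normalised reads in the controls and 29814, 27191, 27288 and 23847 under csr-1 RNAi. Its log2 fold change was 0.36 (SE 0.13, limma adjusted p = 0.0856). DESeq2 called it (0.37, adjusted p = 0.0409), but DESeq2 called 12% of all genes higher, against 6.98% in limma. rpn-2 had 15715, 19809, 20584 and 15777 reads in the controls and 22336, 23791, 23537 and 21880 under csr-1 RNAi (0.36, SE 0.14, adjusted p = 0.112). The groups overlapped for rpn-1 and did not for rpn-2.

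None of the 6 ATPase genes passed, and their log2 fold changes ran from −0.32 to 0.21. The lowest was that of rpt-1, with 11124, 12346, 12624 and 10174 reads in the controls and 8043, 9133, 9014 and 10841 under csr-1 RNAi (−0.32, SE 0.13, adjusted p = 0.117). Over the 19 regulatory genes the median log2 fold change was −0.0039, against 0.02 over all tested genes, and 9 of 19 lay above 0, where 51.4% of all genes did. In all, 4 regulatory genes had csr-1 ranges above the controls and 1 below, where 9.97% and 11.7% of all genes did.

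None of the 14 core genes passed in csr-1 RNAi (limma), and 1 had an unadjusted p under 0.05; edgeR called 0 and DESeq2 called 1. Their median log2 fold change was 0.08, from −0.18 for pas-1 to 0.46 for pbs-5. pbs-5, the gene of the chymotrypsin-like subunit, had 7954, 7982, 8653 and 6091 normalised reads in the controls and 8802, 9994, 10235 and 13387 under csr-1 RNAi. The ranges did not overlap, but the difference did not pass over all genes (0.46, SE 0.17, adjusted p = 0.09). It passed with DESeq2 (adjusted p = 0.048), which called 12% of all genes higher, and with libraries centred on their median (0.0377). pas-1, an alpha subunit, had 7200, 7297, 7234 and 5734 reads in the controls and 5600, 5576, 5897 and 7278 under csr-1 RNAi (−0.18, SE 0.13, adjusted p = 0.391).

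The core genes varied together between the csr-1 libraries. Against the control mean, 1, 8, 7 and 14 of the 14 core genes were higher in the csr-1 libraries orig, 1, 2 and 3. pas-5, an alpha subunit, shows the span: it had 9681, 9884, 9564 and 9898 reads in the controls and 7949, 10508, 11165 and 17994 under csr-1 RNAi. The median core difference from the control mean was −0.21, 0.09, −0.01 and 0.52 on the log2 scale in orig, 1, 2 and 3. The 95% interval of the pas-5 log2 fold change ran from −0.24 to 0.68, and those of the 14 core genes together from −0.52 to 0.83. The sperm marker sums given above were lowest in orig and highest in 3 as well, and csr-1 itself had 6025, 3827, 3045 and 2445 reads. The summed reads of 5 muscle markers were 2244, 3842, 6114 and 10783 in csr-1 libraries orig, 1, 2 and 3. Those of the 7 sheath and spermatheca markers were 749, 2429, 2229 and 2798, and those of 5 cuticle markers 489, 1949, 1531 and 2366. All 3 sums were lowest in orig and highest in 3. Other marker sums went the other way, highest in orig and lowest in 3. They were 34284, 16306, 14685 and 6176 for 5 intestine markers and 3957, 3505, 3310 and 3274 for 5 neuron markers. For the 10 germline markers they ran from 227909 in orig to 190026 in 3. These 10 include glh-1, with 74352, 64398, 61186 and 55940 reads in the csr-1 libraries and 18080 to 29600 in the controls. That sum therefore does not measure germline content alone. The part of any of these marker groups in the core levels was not tested. Without csr-1 library 3 the median log2 fold change of the core genes was 7.4e-05, and without libraries 2 and 3 it was −0.08.

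**Figure D2:**
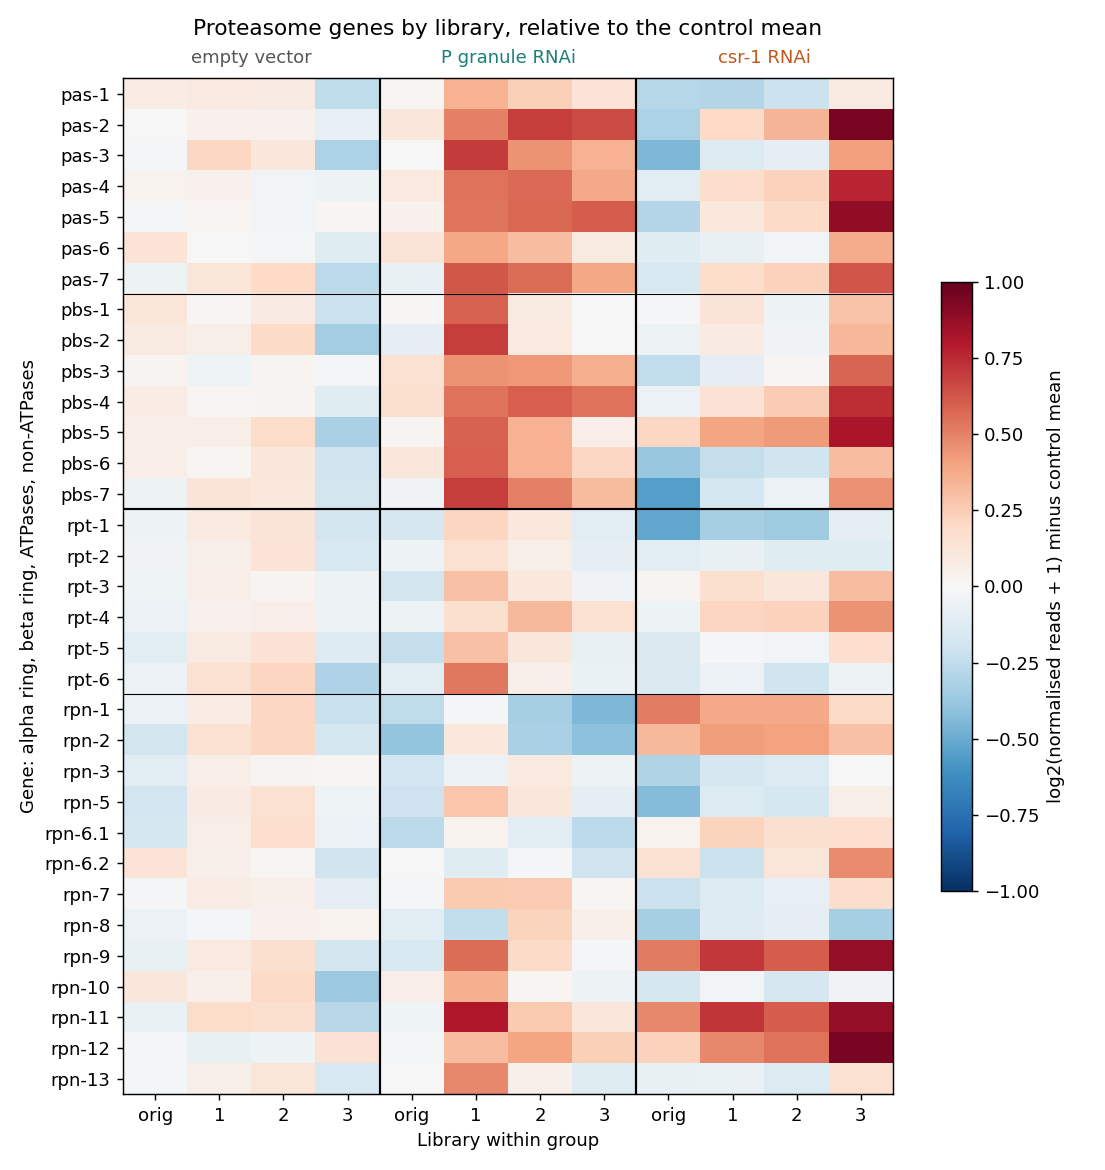
log2(normalised reads + 1) minus the mean of the 4 control libraries, for the 33 genes (rows, by subcomplex) in the 12 libraries (columns, by group). Most core genes (upper 14 rows) were high in P granule libraries 1, 2 and 3 and in csr-1 library 3. In P granule libraries 2 and 3, pbs-1 and pbs-2 lay within their control ranges. The regulatory genes rpn-9, rpn-11 and rpn-12 were high in the csr-1 libraries.

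Under P granule RNAi the core genes all lay on the higher side, and none passed the test. All 14 had a log2 fold change above 0, from 0.17 for pbs-1 to 0.49 for pas-2, with a median of 0.36. Over all tested genes the median was 0.03 and 52.4% were above 0. The 19 regulatory genes had a median of 0.02, with 13 above 0 and 6 below. limma called 0 of the 33 members, and 0.0617% of all genes (0.0264% higher and 0.0353% lower). At an unadjusted p under 0.05 there were 4 core genes and 0 regulatory genes, and edgeR and DESeq2 called 0 members.

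In 6 of the 14 core genes the P granule libraries lay above all controls, or 42.9%, where 5.13% of all tested genes did. None of the 19 regulatory genes did, and no member lay below all controls, where 7.06% of all genes did. These genes share their libraries, so the 6 are not independent of each other. They were pas-2, pas-4, pas-5, pbs-3, pbs-4 and pbs-6.

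pas-2 encodes an alpha subunit. It had 8685, 8943, 8982 and 8200 normalised reads in the control libraries orig, 1, 2 and 3 and 9425, 12342, 14048 and 13671 under P granule RNAi. The log2 fold change was 0.49 (SE 0.22, limma adjusted p = 0.359; 95% interval 0.01 to 0.97). pbs-4 encodes a beta subunit without a catalytic site. It had 6604, 6384, 6401 and 5780 reads in the controls and 7008, 9180, 9497 and 9154 under P granule RNAi (0.46, SE 0.16, adjusted p = 0.317). In both genes library orig lay near the controls and the other 3 above it. pbs-1 had 7706, 7116, 7494 and 6098 reads in the controls and 7118, 10647, 7543 and 7072 under P granule RNAi, with library 1 alone above the controls (0.17, SE 0.15, adjusted p = 0.54).

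That split held for most of the core. The median core difference from the control mean was 0.04, 0.57, 0.44 and 0.33 on the log2 scale in P granule libraries orig, 1, 2 and 3, and 10, 14, 14 and 13 of the 14 core genes lay above the control mean. The regulatory medians were −0.11, 0.26, 0.11 and −0.06. Without the 3 libraries named orig, the median log2 fold change of the core genes was 0.46 and still 0 passed. The summed reads of the sheath markers were 740 in P granule library orig and 2126 to 2660 in libraries 1, 2 and 3; in the controls, where the core medians were 0.05, 0.04, 0.08 and −0.19, they were 869, 1459, 2100 and 2939. The summed reads of the 10 germline markers were 155144 to 201615 in the P granule libraries and 192801 to 252905 in the controls. These 10 include pgl-1 and glh-1, which are targets of this RNAi. The sum therefore holds the knockdown itself and cannot measure germline content here. The muscle marker sums were 3771, 5423, 9650 and 10317 in P granule libraries orig, 1, 2 and 3 and 3249 to 6281 in the controls. The cuticle marker sums were 731, 2490, 2157 and 5614 there and 783 to 2262 in the controls. Intestine marker sums in the same P granule libraries were 3056, 8050, 7453 and 32466, against 7108 to 38380 in the controls. The sperm marker sums were 3695, 1263, 5465 and 2281, lowest in library 1, where the core median was highest. The part of any of these cells in the core levels was not tested.

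The summed normalised reads of core genes divided by those of regulatory genes gave a single ratio per library. It was 0.622, 0.567, 0.556 and 0.558 in the control libraries orig, 1, 2 and 3, and 0.662, 0.728, 0.745 and 0.769 under P granule RNAi. All 4 P granule libraries lay above all 4 controls. Under csr-1 RNAi it was 0.487, 0.533, 0.559 and 0.727, which overlapped both groups. The group means were 0.576 ± 0.0313, 0.726 ± 0.0457 and 0.577 ± 0.105 for empty vector, P granule and csr-1 RNAi (SD, n = 4). The ratio was described and not tested. The share of all reads in genes taken by the 33 genes was 1.35% ± 0.073 under P granule RNAi and 1.38% ± 0.147 under csr-1 RNAi, against 1.16% to 1.21% in the single controls.

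**Figure D3:**
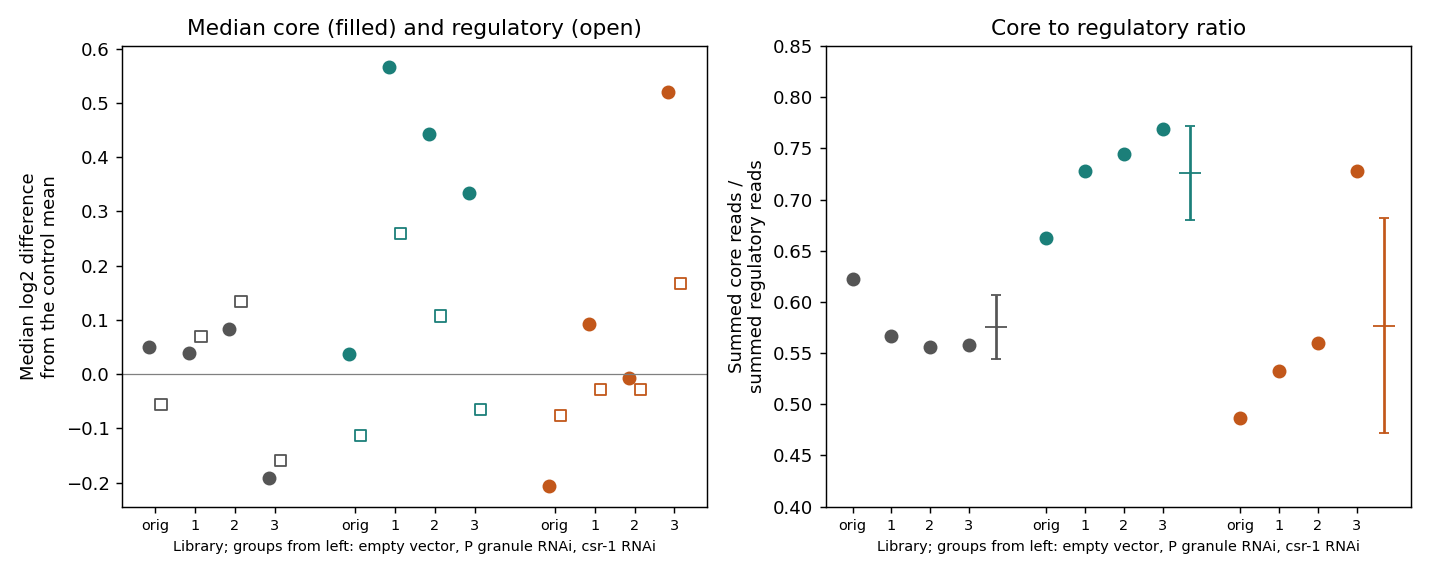
Left, median log2 difference from the control mean of the 14 core genes (filled circles) and 19 regulatory genes (open squares) in each library; right, summed core reads divided by summed regulatory reads (points, libraries; lines, mean and SD of 4 libraries). The ratio was 0.662 to 0.769 in the P granule libraries and 0.556 to 0.622 in the controls; the right axis does not start at 0.

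No regulatory gene passed the test under P granule RNAi. The largest positive log2 fold change was that of rpn-11, with 7646, 13769, 9453 and 8525 normalised reads in P granule libraries orig, 1, 2 and 3 (0.28, SE 0.18, adjusted p = 0.43). Library 1 was high, and without it the log2 fold change was 0.11. The most negative was that of rpn-1, with 17548, 20653, 16643 and 15359 reads (−0.26, SE 0.13, adjusted p = 0.372). The ATPase genes lay between 0.01 for rpt-1 and 0.14 for rpt-4, and their 95% intervals together ran from −0.27 to 0.44. Those of the non-ATPase genes were wider, from −0.56 at the low end for rpn-2 to 0.67 at the high end for rpn-11.

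The 2 RNAi groups were then compared with each other. rpn-1 and rpn-2 were higher under csr-1 RNAi than under P granule RNAi, and no member was lower. These 2 genes are 6.06% of the 33 members, where 5.25% of all tested genes were higher and 4.27% lower, 9.52% in all (6.63% higher and 2.89% lower with median-centred libraries). They were also the only members whose ranges did not overlap in this comparison, where 7.4% of all genes lay above and 7.9% below. The share is near that of all genes.

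rpn-1 had 23847 to 29814 reads under csr-1 RNAi and 17548 to 20653 with P granule RNAi. The log2 fold change was 0.63 (SE 0.13, limma adjusted p = 0.0111), a fold of 1.54. It passed without any single library (adjusted p between 0.00534 and 0.0401) but not without the 3 orig libraries (0.0938). rpn-2 had 13582, 19230, 14251 and 13399 reads under P granule RNAi, all below the csr-1 libraries given above. The log2 fold change was 0.61 (SE 0.14, adjusted p = 0.0179). Its call was lost without P granule library orig, 2 or 3 or csr-1 library 1 or 2, at adjusted p between 0.0512 and 0.0615, and without the 3 orig libraries (0.105). The control values of both genes lay between those of the RNAi groups in the mean, and neither gene passed against the control. The lid genes that rose against the control did not pass here, rpn-9 at 0.53 (SE 0.16, adjusted p = 0.0513), rpn-11 at 0.39 (SE 0.18, adjusted p = 0.214) and rpn-12 at 0.32 (SE 0.15, adjusted p = 0.223). rpn-9 lay at the threshold: it passed with DESeq2 (adjusted p = 0.0226), with median-centred libraries (0.018), with the stricter filter (0.044), with the replicate block (0.0398) and without P granule library 1 (0.0102). rpn-11 passed only in the last of these (0.56, adjusted p = 0.0332).

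Of the 14 core genes, 13 had a negative log2 fold change in csr-1 RNAi against P granule RNAi (median −0.19, all tested genes −0.04, of which 46.4% lay above 0) and 0 passed in limma, with 4 at an unadjusted p under 0.05; edgeR and DESeq2 called 0. The lowest was that of pbs-7, a beta subunit gene, with 7650, 12608, 11080 and 9762 reads under P granule RNAi and 5348, 6926, 7529 and 10773 under csr-1 RNAi (−0.45, SE 0.20, adjusted p = 0.21). The exception was pbs-5 (0.20, SE 0.17, adjusted p = 0.563). Without csr-1 library 3, 5 core genes were lower, pas-1 (−0.45), pas-3 (−0.60), pbs-3 (−0.46), pbs-6 (−0.59) and pbs-7 (−0.63), at adjusted p between 0.0099 and 0.0338, and rpt-1 was lower as well (−0.42, adjusted p = 0.0421). In that fit 7.54% of all genes were lower, against 4.27% with all libraries. rpt-1 with all libraries stood at −0.34 (SE 0.13, adjusted p = 0.134). In csr-1 library 3 the core ratio given above was 0.727, and in the other 3 csr-1 libraries 0.487 to 0.559.

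**Figure D4:**
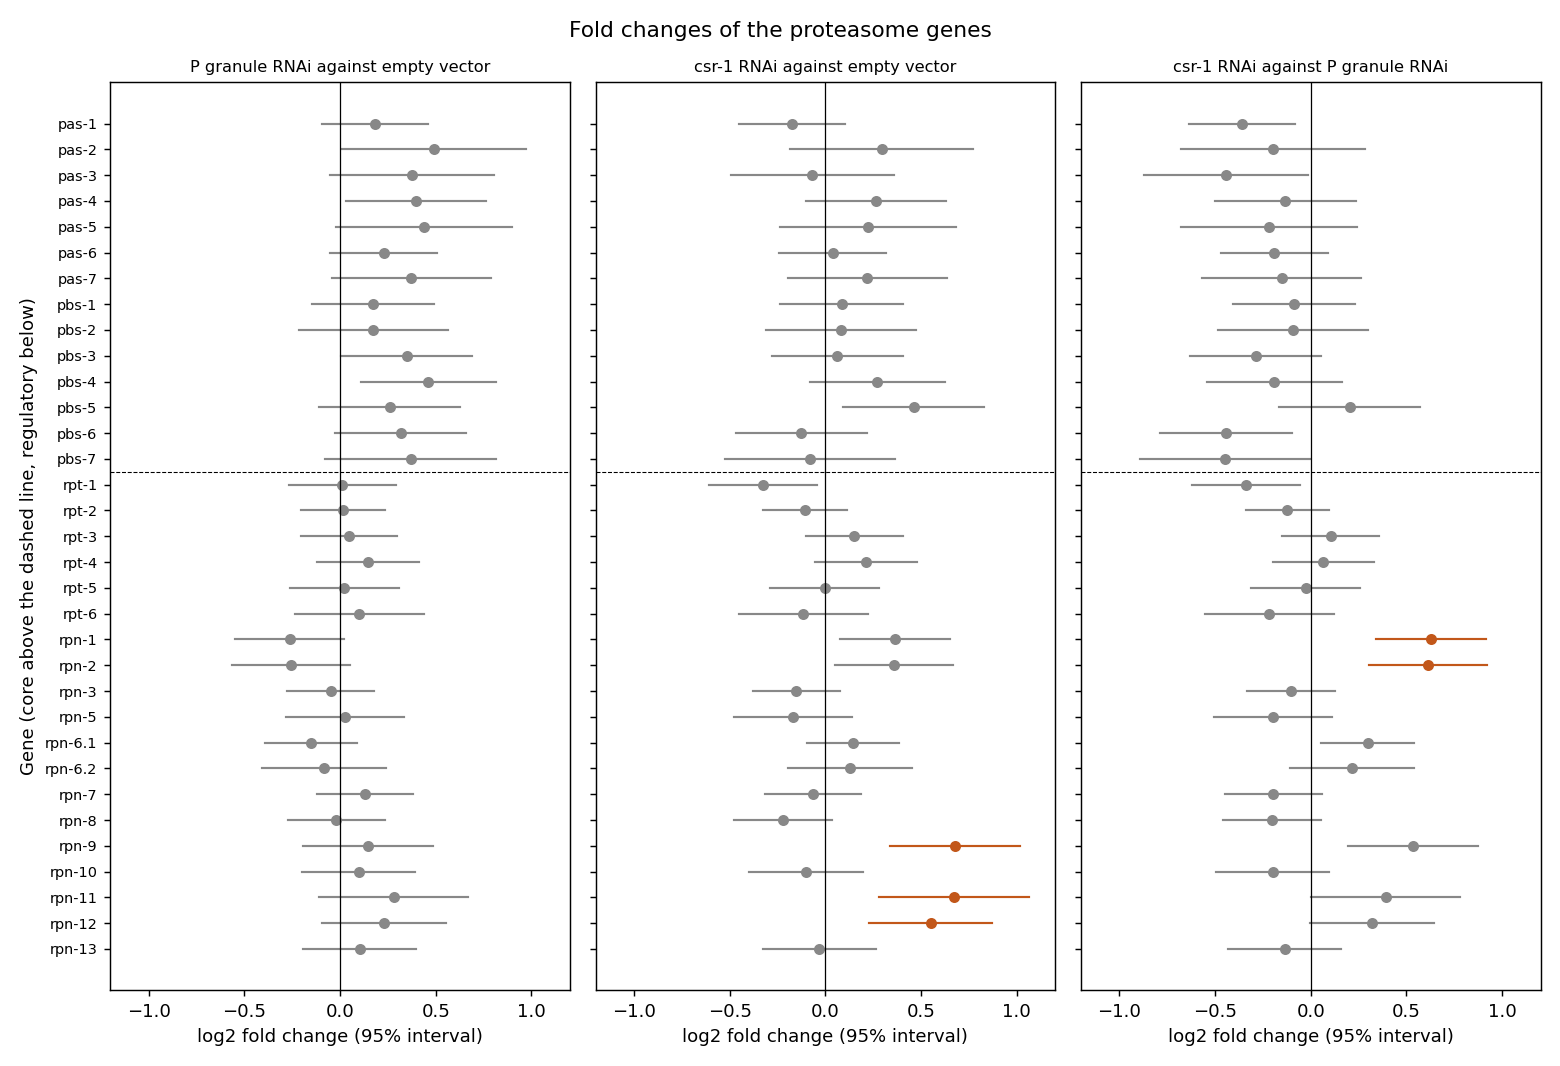
log2 fold changes of the 33 genes in the 3 comparisons (points, estimates from limma; lines, 95% intervals; orange, past the adjusted threshold). All 14 core genes lay above 0 under P granule RNAi with none past the test, and the orange points are rpn-9, rpn-11 and rpn-12 in csr-1 RNAi and rpn-1 and rpn-2 between the RNAi groups.

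The authors' deposited table called 0 of the 33 members at an adjusted p under 0.05 for csr-1 RNAi and 0 for P granule RNAi, with 982 and 104 of all genes called. The authors' deposited table gave core genes ratios of 1.13 to 1.42 under P granule RNAi and of 0.887 to 1.38 under csr-1 RNAi.

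The rest of the ubiquitin and proteasome pathway was read from 10 lists that together name 123 genes, 113 of them tested. Under P granule RNAi 0 of the 113 passed the test in limma. Under csr-1 RNAi 8 rose and 3 fell, where 6.98% and 7.8% of all genes did. Between the RNAi groups 6 were higher and 3 lower, where 5.25% and 4.27% of all genes were.

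The first list held 14 genes, cofactors, shuttles and regulators of the proteasome and also sel-1, sel-9 and sel-11, which are not proteasome cofactors. Of the 14, 1 rose under csr-1 RNAi (median log2 fold change 0.11). This was aip-1, which encodes a zinc finger protein of the arsenite response that associates with the proteasome. It had 1437, 1301, 1333 and 1924 normalised reads in the controls and 2476, 2261, 2348 and 2794 under csr-1 RNAi (0.73, SE 0.13, adjusted p = 0.00414), with no overlap. skn-1, whose protein is known to switch on proteasome genes in C. elegans when the proteasome is impaired, had 7011, 6921, 7674 and 5614 reads in the controls, 9039, 7057, 7313 and 4372 under csr-1 RNAi and 7520, 5826, 5146 and 4367 under P granule RNAi. It did not pass, at adjusted p = 0.986 and 0.517. dss-1, the small lid subunit outside the symbol rule, did not pass either (0.26, SE 0.21, adjusted p = 0.442 under csr-1 RNAi and 0.59, SE 0.21, adjusted p = 0.317 under P granule RNAi). Its P granule libraries, with 3098, 4598, 4387 and 3833 reads, lay above the controls, with 2870, 3008, 2727 and 1995. skn-1 and dss-1 were named for their roles after their values were seen.

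Of 6 ubiquitin and ubiquitin-like genes tested, ubl-5 rose under csr-1 RNAi (0.82, SE 0.24, adjusted p = 0.0381), from 390 ± 95.6 to 705 ± 231 normalised reads (SD, n = 4). The groups overlapped, with 328 to 530 reads in the controls and 467 to 1018 under csr-1 RNAi. Under P granule RNAi, where ubl-5 did not pass, it had 478 to 706 reads. None of the 6 E1 and 20 E2 enzyme genes passed in any comparison with limma. Of the 7 genes of the CDC-48 complex, which extracts ubiquitin-tagged proteins and hands them to the proteasome, cdc-48.1 fell from 37012 ± 4466 to 26601 ± 3005 reads (−0.48, SE 0.13, adjusted p = 0.0293). The 6 genes of the COP9 signalosome, a relative of the lid, had 0 calls in the 3 comparisons, with median log2 fold changes of −0.02 in csr-1 RNAi and −0.17 in P granule RNAi.

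Among 12 cullins and their partners, elc-1, the Elongin C gene, fell from 1184 ± 187 to 671 ± 87.8 reads under csr-1 RNAi (−0.82, SE 0.16, adjusted p = 0.00572). It was also lower than under P granule RNAi (−0.57, SE 0.16, adjusted p = 0.0422). Among 19 tested Skp1-related genes, which link F-box proteins to a cullin, 5 rose and 1 fell, where 6.98% and 7.8% of all genes did. skr-1, the most studied adaptor, fell from 4873 ± 175 to 3717 ± 479 reads (−0.40, SE 0.11, adjusted p = 0.029). The 5 that rose were expressed at low levels, from 5.23 ± 0.985 reads for skr-12 to 226 ± 36.6 for skr-7 in the control. skr-12 reached 54.8 ± 23.9 reads (3.09, SE 0.37, adjusted p = 0.000395). It lay below the minimum of 10 reads in the controls and in P granule library orig (8.85). It passed the filter only with the csr-1 libraries, the group in which it was high. This limit holds for both of its comparisons. skr-10 (1.67, SE 0.34), skr-13 (1.24, SE 0.31) and skr-14 (0.95, SE 0.26) also rose. Between the RNAi groups skr-12 (1.88, SE 0.37, adjusted p = 0.00855) and skr-10 (1.24, SE 0.34, adjusted p = 0.0369) were higher under csr-1 RNAi. skr-21 (−1.26, SE 0.22, adjusted p = 0.00431) and skr-1 (−0.45, SE 0.11, adjusted p = 0.0224) were lower. Many skr genes are close copies that can share reads, so their single values are uncertain.

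Substrate receptors and the anaphase promoting complex had calls between the RNAi groups. zif-1, whose product directs the removal of germline zinc finger proteins from somatic cells of the embryo, had 4497 ± 470 reads in the control, 3989 ± 525 under P granule RNAi and 6225 ± 926 under csr-1 RNAi. It rose against the control (0.46, SE 0.14, adjusted p = 0.041) and was higher than under P granule RNAi (0.64, SE 0.14, adjusted p = 0.0128). mel-26, the adaptor for removal of katanin after meiosis, was higher under csr-1 than under P granule RNAi (0.72, SE 0.15, adjusted p = 0.0119). So was emb-27, a subunit gene of the anaphase promoting complex (0.78, SE 0.12, adjusted p = 0.00219), and such-1, another subunit gene (0.48, SE 0.13, adjusted p = 0.0351). Among 12 tested genes of that complex 2 were higher and 0 lower in this comparison, where 5.25% and 4.27% of all genes were.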

How the data were processed

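Poly(A) libraries of 12 gonad samples were sequenced as single reads of 100 bp, per the labels' protocols. Tools named in the submitters' processing notes are DESeq 1.1.2.1, HTSeq 0.5.4p3, SAMtools 0.1.18, TopHat2 2.0.8b and CASAVA. Neither build nor annotation is given in the sources used here. The deposited table holds a signal per gene: reads divided by a library size factor set by the authors, as its values show (100% of 187378 values above 0 were whole multiples of 1 step per column within 0.01 reads). The authors also deposited fold changes (ratios of group means) with adjusted p-values, per the file headers. Columns not used numbered 0.

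Of 45836 gene entries, 44517 (97.1%) matched a RefSeq locus tag (WBcel235), used for names and chromosomes. The 5 entries that name no gene were left out; ambiguous reads were 0.783% to 0.917% and not uniquely aligned ones 2.04% to 2.76%. Coding lengths are the longest per gene in the Ensembl annotation, in place of the RefSeq protein lengths that had been planned.

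A filter kept the 11345 genes that reached 10 normalised reads in 4 or more libraries. limma 3.58.1 (R 4.3.3) with trend and robust moderation was fitted to log2(value + 1) of all 12 libraries (group means model); Benjamini-Hochberg adjustment ran over all genes, threshold 0.05. On this scale, fold changes understate those of low genes. edgeR 4.0.16 and DESeq2 1.42.0 were run on recovered whole reads as alternatives. The fit was tested on simulated data. Nothing says that same-named libraries share a culture. Intervals are at 95%. Proteasome genes past the threshold, with the largest rise and fall per particle and comparison, and the rpn-6 pair are given by library. Of the other lists, genes past the threshold are named, at most 4 per list and comparison, besides skr-1 and skr-7 under csr-1 RNAi, chosen after their values were seen. The members and lists were chosen with earlier results of these data known.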

Additional observations from a re-analysis of the deposited data

Results flagged for a closer look

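In 8 of 105 sets of 4 libraries (33 genes and 2 summed measures in 3 groups), the highest or lowest library stood apart from the rest, by a gap to its nearest neighbour above Dixon's 95% critical share of the range; chance flags about 1 in 20 such sets. Under P granule RNAi the lowest library of pas-5 (10074 normalised reads, next 14140; gap 0.851 of the range) and of pbs-4 (7008, next 9154; 0.862) was orig. In the same group the highest library of pbs-1 (10647, next 7543; 0.868) and of rpn-2 (19230, next 14251; 0.854) was library 1. In the controls, pas-1 was low in library 3 (5734, next 7200; 0.938), and the ratio of core to regulatory reads was high in library orig (0.622, next 0.567; 0.834). Under csr-1 RNAi, pas-6 was high in library 3 (11400, next 8646; 0.833), and rpt-2 in library 1 (10507, next 10210; 0.854), although the 4 libraries of rpt-2 spanned only 10159 to 10507.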

How the results depend on the processing

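The count of regulatory genes called in csr-1 RNAi against the control was 3 and ran from 1 to 4 when single libraries were left out; without csr-1 libraries 2 and 3, an alternative chosen after seeing the data, it was 0. Between the RNAi groups it was 2, ran from 1 to 4 without single libraries, was 4 with median-centred libraries and 0 without the 3 orig libraries. The core count in csr-1 RNAi was 0, and 1 with DESeq2 or median-centred libraries (pbs-5). Between the RNAi groups the core count was 0, ran from 0 to 5 without single libraries, and was 5 without csr-1 libraries 2 and 3; over all genes 1080 were called with all libraries, 1952 without csr-1 library 3 and 1718 without libraries 2 and 3. Under P granule RNAi both counts were 0 in every alternative run, although over all genes limma called 7, DESeq2 92, and limma without csr-1 library 3 called 200. The median log2 fold change of core genes under P granule RNAi ran from 0.26 to 0.46 over the alternatives, that under csr-1 RNAi from −0.08 to 0.17, which includes a change of sign, and that between the RNAi groups from −0.45 to −0.07. The core median divided by that of all 19 regulatory genes, as the mean over the 4 controls, was 1.39 per kb of coding length and 1.26 per kb of exon, a length also added later. No fold change of the genes named by rule changed sign. Same-named libraries of different groups deviated together in some pairs and not in others (correlations from −0.47 to 0.66, 6 of 12 below 0; 6 of 12 libraries matched their own name best), so they were not treated as pairs; with the replicate block 3 regulatory genes were called in csr-1 RNAi and 3 between the RNAi groups, of 2082 and 1284 genes in all. Centring shifted the median of all genes from 0.02 to 0.10 in csr-1 RNAi and from −0.04 to 0.08 between the RNAi groups. The 4 libraries per group limit what can be called: the 95% interval of pas-2 under P granule RNAi was 0.01 to 0.97.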

Other observations

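The chaperonin CCT, a ring complex of 8 different subunits that folds actin and tubulin, served as another complex of constant make-up. Under csr-1 RNAi cct-3 fell from 12543 ± 1525 to 9291 ± 871 normalised reads (SD, n = 4; log2 fold change −0.43, SE 0.12, limma adjusted p = 0.0293) and cct-8 from 13385 ± 2097 to 9596 ± 454 (−0.47, SE 0.14, adjusted p = 0.0488), with no overlap between the groups. These were 2 of its 8 genes, where 7.8% of all tested genes fell and 11.7% lay below all controls. The median over its 8 genes was −0.20 under csr-1 RNAi and −0.10 under P granule RNAi, where 0 passed. For the 14 proteasome core genes these medians were 0.08 and 0.36. The difference between the complexes was not tested.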
